A study of Caenorhabditis elegans with 11 samples.

Results

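Genes of the germ granules and of the small RNA pathways that work in them were examined on arrays of Caenorhabditis elegans at the fourth larval stage (L4). The genes are the helicase genes glh-1, glh-2, glh-3 and glh-4, the granule protein genes pgl-1 and pgl-3, the Argonaute genes csr-1 and prg-1, and the granule genes deps-1 and meg-1. A probe set of the Affymetrix C. elegans array was taken for a gene where the array's annotation gave that gene symbol and no other. This gave 13 of 22548 probe sets and 10 of 17118 genes, with 2 probe sets for glh-1, 3 for meg-1 and 1 for each of the others. No probe set with several symbols held any of the 10 genes. The study set 5 arrays of strain BW1940 against 6 of strain LT186. BW1940 carries ctIs40, an integrated transgene of the cosmid with wild-type dbl-1 and a sur-5::gfp marker, and so has extra copies of the gene for the BMP-like ligand DBL-1. LT186 has the sma-6(wk7) allele, whose early stop codon is predicted to truncate the type I receptor of DBL-1. Both strains derive from the Bristol strain N2, neither is wild type, and a comparison between them does not show which of the 2 differs from the wild type. Synchronized animals grown on OP50 were judged to be L4 by eye, whole animals were extracted, and each array is labelled as a biological replicate.

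Germ granules, called P granules in C. elegans, are bodies of RNA and protein that sit at the nuclear pores of germ cells and are passed to the germ line founder cells of the embryo. PGL proteins form their scaffold, and the GLH proteins are relatives of Vasa, a helicase found in germ cells of many animals. Germ line RNA passes through these bodies as it leaves the nucleus, where Argonautes loaded with small RNAs survey it. PRG-1 is the Piwi protein that binds piRNAs (the 21U-RNAs) and marks foreign RNA for silencing. CSR-1 binds small RNAs made from genes expressed in the germ line. DEPS-1 acts upstream of PGL-1 accumulation, and MEG-1 is an intrinsically disordered granule protein of the early embryo, made from maternal RNA.

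Values are intensities on a linear scale that the authors computed in Probe Profiler and scaled to 100 on each array. Array medians were 37.0 to 40.0 for BW1940 and 34.2 to 38.8 for LT186. Differences were tested with limma on log2 values after 10 was added, over 18801 probe sets, with the adjustment of Benjamini and Hochberg. A negative log2 difference is lower in BW1940. The receptor gene sma-6 followed the labels, at 102 ± 19.6 in BW1940 (SD, n = 5) and 31.3 ± 2.79 in LT186 (SD, n = 6). The ligand gene dbl-1, on its brightest probe set alone, was at 79.4 ± 21.5 in BW1940 (SD, n = 5) and 57.3 ± 14.1 in LT186 (SD, n = 6). This was a log2 difference of 0.40 that did not pass (adjusted p = 0.318 by limma). The paper lists dbl-1 among its significantly up-regulated genes, at lower intensities and with a larger difference than on this probe set. Genes of sperm varied widely within both strains: the mean log2 value of 65 sperm genes, the sperm score, was 6.21 in BW1940 replicate 1, 5.21 in LT186 replicate 2 and 5.04 in LT186 replicate 4, and 6.77 to 8.18 on the other arrays. The counts of the 10 genes are given with and without these 3 arrays. Precision is limited by how many arrays there are.

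Log2 differences were below 0 for all 10 genes, with BW1940 under LT186, and 0 passed limma's test after adjustment over all probe sets. Of all probe sets tested, 1.02% passed in either direction, 0.686% higher and 0.33% lower in BW1940. Before adjustment, limma's p was under 0.05 for 4 of the 10 genes, all lower, against 5.03% of all probe sets lower and 11.7% higher. The 4 were pgl-1, prg-1, csr-1 and glh-4. Without BW1940 replicate 1, LT186 replicate 1 or LT186 replicate 6, each left out by itself, this level was reached by pgl-1 alone. After quantile normalization it was reached by 5, the 4 and glh-1, all lower, against 6.58% of all probe sets lower and 6.06% higher. An equal-variance form of the methods' test gave 3 at this level, all but glh-4. After adjustment it gave 0 of the 10 genes, against 381 of 18801 probe sets. Shares of all probe sets at the unadjusted level were not counted for this form or for the fits with an array left out. The unadjusted counts of the 10 genes in those fits therefore cannot be weighed against all probe sets. The median log2 difference of the 10 genes was -0.27, and that of all probe sets tested was 0.08. A log2 difference below 0 was found in 39.3% of all probe sets. For 0 of the 10 genes did every BW1940 array lie below every LT186 array, which 1.47% of all probe sets did, and 2.95% lay wholly above. In RNA of whole animals, fewer germ cells and less of a transcript per germ cell cannot be told apart.

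**Figure D1:**
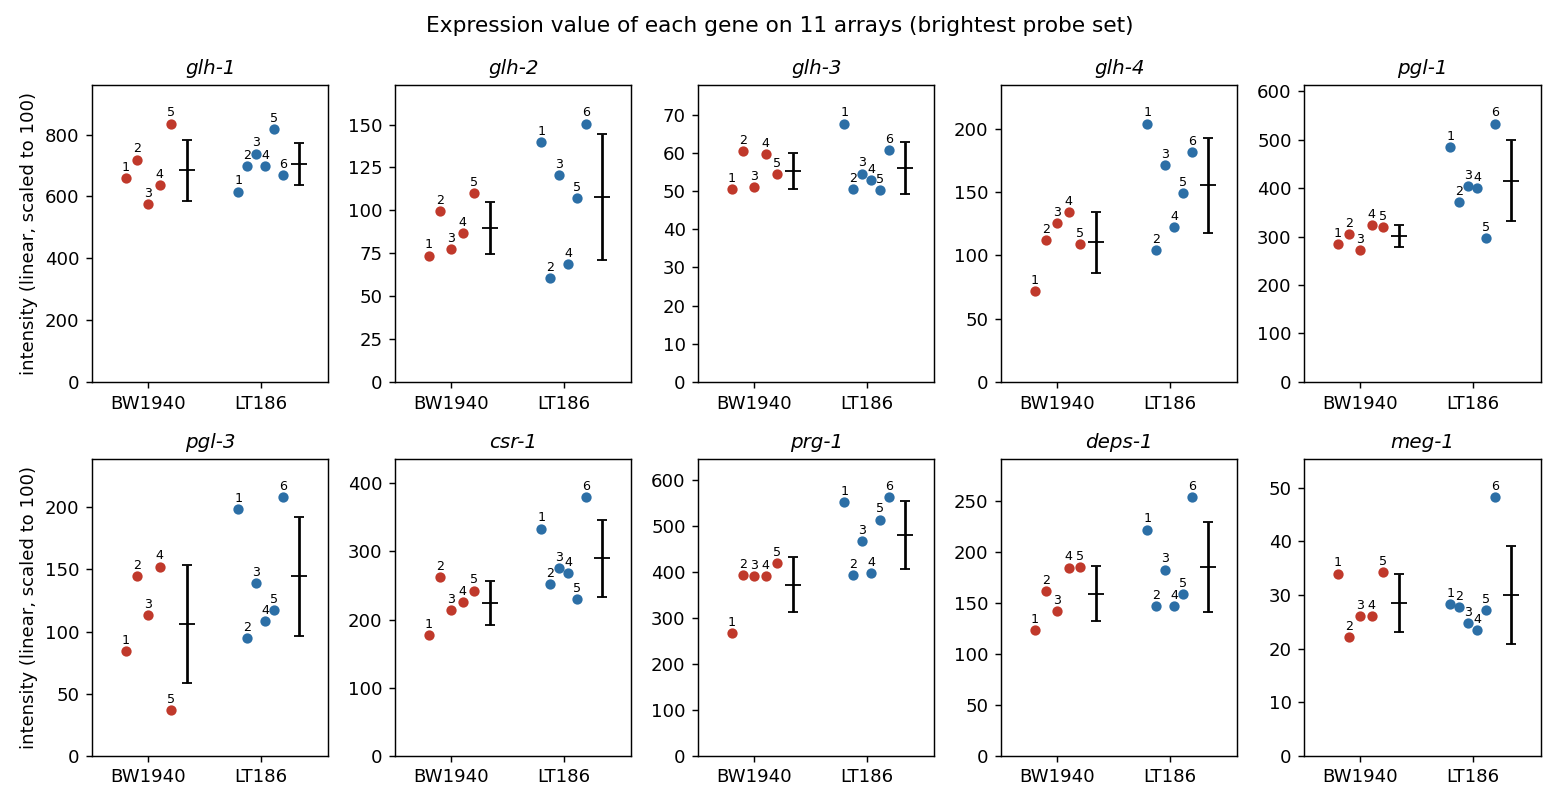
Intensity (linear scale, scaled to 100) of the brightest probe set of each gene on 5 BW1940 and 6 LT186 arrays, with numbers for replicates and bars for mean and SD. The LT186 points of pgl-1, csr-1, prg-1 and glh-4 reach above all BW1940 points on 4 or 5 arrays, while glh-1 and glh-3 cover much the same range in both strains.

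The helicase gene glh-1 (T21G5.3) encodes a constitutive granule protein related to Vasa. Its brightest probe set, 175430_s_at, had values of 659, 719, 575, 636 and 836 on BW1940 replicates 1 to 5. On the LT186 arrays the lowest value was 616, the median 699 and the highest 817. The strains overlapped throughout, with the highest and the lowest array both in BW1940. It differed by -0.05 on the log2 scale (95% confidence interval -0.32 to 0.22, adjusted p = 0.908 by limma). The other probe set of glh-1, 190711_at, gave -0.0034 (95% confidence interval -0.31 to 0.30). Differences up to these bounds, in either direction, could not be told from 0 with these arrays. After quantile normalization the brightest probe set stood at -0.29 (unadjusted p = 0.0092, adjusted p = 0.193 by limma). The suffix of this probe set in the array's naming (s_at) marks probes that can match more than a single transcript.

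The gene glh-2 (C55B7.1), a close relative of glh-1, had values of 73.6, 99.8, 77.6, 86.7 and 110.0 on BW1940 replicates 1 to 5. Its lowest, median and highest values in LT186 were 60.3, 114 and 151. The LT186 arrays enclosed those of BW1940, in that LT186 replicates 2 and 4 were lowest of all arrays, at 60.3 and 68.8. These are also the arrays of lowest sperm score. BW1940 minus LT186 came to -0.19 on the log2 scale (95% confidence interval -0.69 to 0.30, adjusted p = 0.758). Without the 3 arrays of low sperm score it was -0.43 (standard error 0.16, adjusted p = 0.217 by limma). The part of the sperm gene level in this was not tested.

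For glh-4 (T12F5.3), which encodes a larger protein of the family, BW1940 replicates 1 to 5 gave 71.8, 112, 126, 134 and 109. In LT186 the lowest value was 104, the median 160.5 and the highest 204. On 4 of the 6 LT186 arrays glh-4 was above every BW1940 array, and LT186 replicates 2 and 4 lay among those of BW1940. The means were 111 ± 24.03 in BW1940 (SD, n = 5) and 156 ± 37.6 in LT186 (SD, n = 6), a ratio of 0.710. On the log2 scale this was -0.45 (standard error 0.20, unadjusted p = 0.0408, adjusted p = 0.274 by limma, and p = 0.0498 by a two-sided exact permutation test over the 462 divisions of the 11 arrays). The smallest p these permutations can give is 0.00216. Replicate 1 of BW1940 was the lowest array by a wide margin. Without it the log2 difference was -0.32 (adjusted p = 0.479). The probe sets of glh-4 (190000_s_at) and glh-3 (191236_s_at) also have the s_at suffix.

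Values of glh-3 (B0414.6), a helicase gene of the same family, were in a narrow range, 50.5 to 60.4 on the BW1940 arrays and 50.3 to 67.7 on those of LT186. Its log2 difference was -0.02 (95% confidence interval -0.25 to 0.22, adjusted p = 0.969), and its standard error of 0.11 was the smallest among the 13 probe sets.

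The scaffold gene pgl-1 (ZK381.4) had the smallest p of the 10 genes and the most LT186 arrays above all of BW1940. BW1940 replicates 1 to 5 gave 284, 305, 272, 323 and 319.8. LT186 gave a lowest value of 298, a median of 403 and a highest of 533. On 5 of the 6 LT186 arrays pgl-1 was above every BW1940 array, and LT186 replicate 5 alone lay within the BW1940 range. The means were 301 ± 22.2 in BW1940 (SD, n = 5) and 415 ± 83.3 in LT186 (SD, n = 6), with the wider spread in LT186. The difference was -0.43 on the log2 scale (standard error 0.15), with an unadjusted p of 0.0125 and an adjusted p of 0.173 by limma and an exact permutation p of 0.0152 (two-sided). With any single array left out, the unadjusted p of pgl-1 stayed under 0.05 and its log2 difference lay between -0.52 and -0.36. Its probe set, 187974_s_at, carries the s_at suffix.

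The paralog pgl-3 (C18G1.4) varied more than any of the others on their brightest probe sets. Its values were 84.1, 145, 113, 152 and 36.7 on BW1940 replicates 1 to 5. In LT186 the lowest was 94.9, the median 128 and the highest 208. The value of 36.7 in BW1940 replicate 5 was the lowest of all arrays, while pgl-1 on the same array was at 319.8, near the top of its strain. Its log2 difference was -0.48 (standard error 0.33, adjusted p = 0.516 by limma, exact permutation p = 0.214). Without BW1940 replicate 5 it was -0.19 (adjusted p = 0.848).

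Both Argonaute genes, csr-1 (F20D12.1) and prg-1 (D2030.6), lay lower in BW1940 at the unadjusted level. For csr-1 the BW1940 arrays gave 177, 262, 214, 225 and 243 in replicates 1 to 5. The LT186 arrays gave a lowest value of 230.1, a median of 272 and a highest of 379. On 4 of the 6 LT186 arrays csr-1 was above all of BW1940, and 3 of the 5 BW1940 arrays were below all of LT186. BW1940 stood at -0.35 relative to LT186 on the log2 scale (standard error 0.15, unadjusted p = 0.0410, adjusted p = 0.274 by limma, exact permutation p = 0.0368).

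The Piwi gene prg-1 had values of 267, 393, 391.5, 391 and 419 on BW1940 replicates 1 to 5, against a lowest value of 393, a median of 491 and a highest of 563 in LT186. The ranges met at LT186 replicate 2, at 393.18, and LT186 replicate 4, at 397, which fell below BW1940 replicate 5. On the other 4 LT186 arrays prg-1 was at 468 or more. The means were 372 ± 59.9 in BW1940 (SD, n = 5) and 481 ± 74.4 in LT186 (SD, n = 6), a ratio of 0.774. As a log2 difference this was -0.36 (standard error 0.15, unadjusted p = 0.0342, adjusted p = 0.255 by limma, exact permutation p = 0.0260). The s_at suffix also applies to the probe set of prg-1, and its close relative prg-2 has a probe set of its own.

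The gene deps-1 (Y65B4BL.2) gave 123, 162, 141, 184 and 185 on BW1940 replicates 1 to 5. In LT186 its lowest value was 146, the median 170.3 and the highest 253. LT186 replicates 1 and 6 were above all other arrays, and the rest overlapped. A log2 difference of -0.19 resulted (95% confidence interval -0.57 to 0.19, adjusted p = 0.658 by limma).

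Values of meg-1 (K02B9.1) were low on all but a few arrays. On a dim probe set, 174964_at, the lowest and highest BW1940 arrays were at 6.35 and 12.05. LT186 replicates 1 to 6 gave 24.5, 9.57, 11.1, 11.9, 9.83 and 78.5, so that replicate 6 stood far above every other array. The second dim probe set, 174965_s_at, repeated this, with 58.9 in LT186 replicate 6, 19.2 in LT186 replicate 1 and at most 14.4 on the other arrays. The brightest probe set, 190120_at, was highest in LT186 replicate 6 as well, at 48.2, with all other arrays between 22.1 and 34.3. The log2 differences of the 3 probe sets were -0.04, -0.62 and -0.25 for 190120_at, 174964_at and 174965_s_at (adjusted p = 0.953, 0.423 and 0.799 by limma). Without LT186 replicate 6 these were 0.08, -0.29 and 0.05. The strain difference of meg-1 changed direction on 2 of its 3 probe sets with this array left out.

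**Figure D2:**
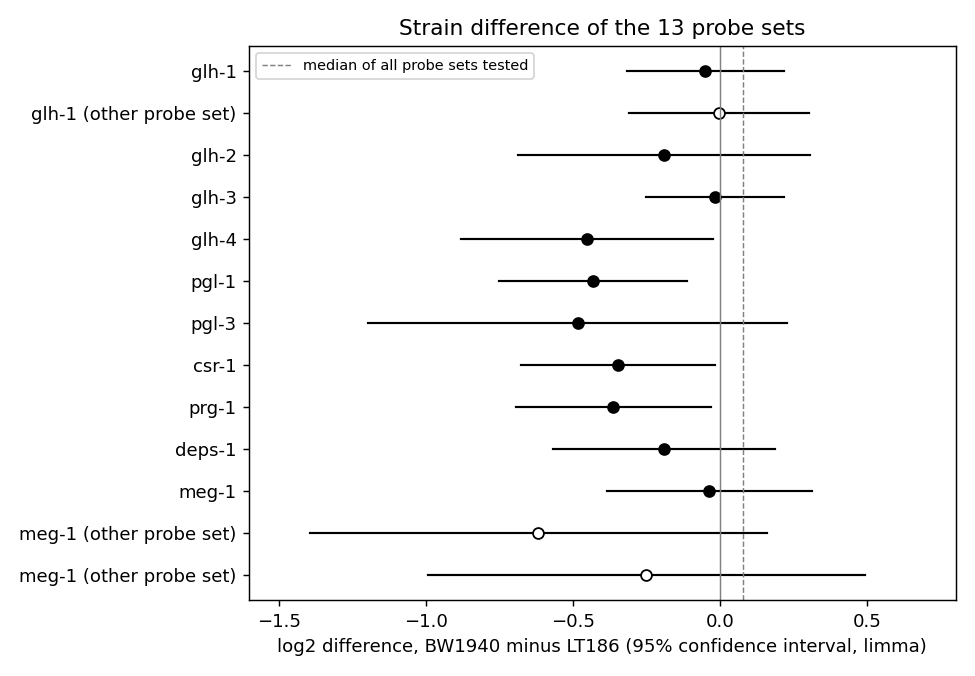
Log2 difference of each of the 13 probe sets, BW1940 minus LT186 (points, filled for the brightest probe set of a gene), with 95% confidence intervals from limma. The intervals of glh-4, pgl-1, csr-1 and prg-1 lie below 0 before adjustment for the number of probe sets, and the dashed line marks the median of all probe sets tested, 0.08.

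Much of the variation among these genes lay within the strains. LT186 replicate 6 was the highest array for 7 of the 10 genes and among the highest 2 for 9. LT186 replicate 1 was among the highest 2 for 8. At the other end, BW1940 replicate 1 was lowest for 4 genes and among the lowest 3 for 8. How many of all probe sets were highest or lowest on these arrays was not counted. Relative to its mean over the 11 arrays, the median gene lay at 0.55 and 0.37 on the log2 scale in LT186 replicates 6 and 1, and at -0.39 in BW1940 replicate 1. The only gene not among its highest 2 in LT186 replicate 6 was glh-1, whose highest arrays were BW1940 replicate 5 and LT186 replicate 5.

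Marker levels of the germ line and of oocytes differed along with these arrays. The mean log2 value of 22 oocyte markers was highest in LT186 replicate 6, at 8.49, and next in LT186 replicate 1, at 7.99, with 6.40 to 7.58 on the other arrays. That of 27 markers of germ line proliferation and meiosis was 6.39 in BW1940 replicate 1, the lowest of all arrays, and 7.33 and 7.36 in LT186 replicates 6 and 1. The germ line marker level did not overlap between the strains, though the ranges nearly met, at 6.39 to 6.79 in BW1940 and 6.82 to 7.36 in LT186. Taken singly, 5 of the 27 markers had every BW1940 array below every LT186 array, against 1.47% of all probe sets. The mean log2 value of 18 somatic markers was 7.75 to 8.02 in BW1940 and 7.53 to 7.78 in LT186. The part of germ line content in the differences of the 10 genes was not tested. Of 29 further granule component genes, 15 were highest in LT186 replicate 6, and 15 had LT186 replicates 1 and 6 as their highest 2 arrays. Such counts were not made over all probe sets. Other granule genes did not follow: ekl-1 and znfx-1 were lowest of LT186 in replicate 6, at 139 and 71.4, and vbh-1 was lowest of LT186 in replicates 1 and 6, at 445 and 454. For nos-2, a maternal RNA of the germ plasm picked here because its values resemble those of meg-1, the BW1940 arrays gave 15.8 to 25.8, LT186 replicates 6 and 1 gave 67.8 and 33.5, and the other LT186 arrays 16.9 to 18.1.

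**Figure D3:**
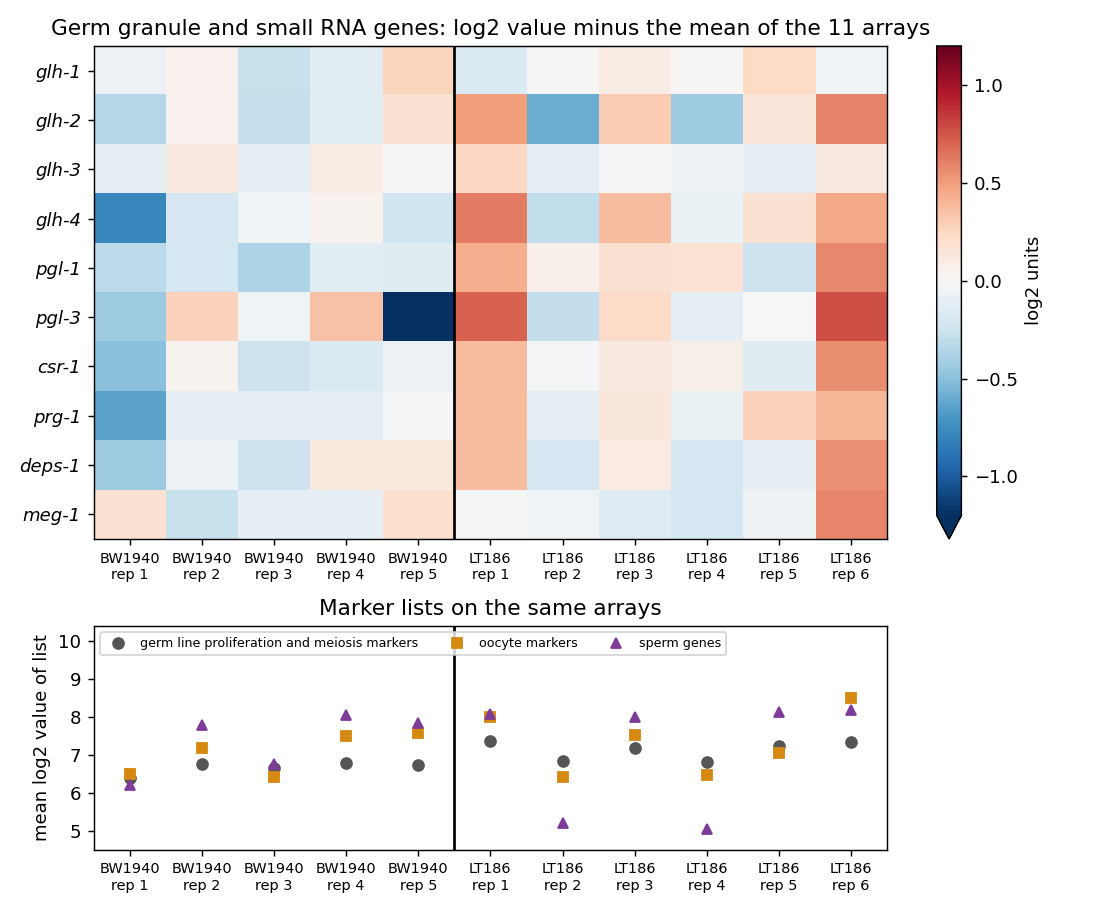
Top, log2 value of each gene minus its mean over the 11 arrays (colour, log2 units), and bottom, mean log2 value of the germ line, oocyte and sperm marker lists on the same arrays. LT186 replicates 1 and 6 are high for 8 and 9 of the 10 genes and carry the highest oocyte marker levels, 7.99 and 8.49.

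The genes other than glh-1 and meg-1, a choice made from these values, varied together over the arrays. Pearson correlations of log2 values over the 11 arrays, given here as a description, lay between 0.41 and 0.93 for the 28 pairs of these 8 genes (median 0.69). The points share strain, scaling and the state of the germ line on each array. The highest values were for glh-4 with prg-1 (0.93) and pgl-1 with csr-1 (0.91). Without LT186 replicates 1 and 6 the median of the 28 pairs was 0.38, with a range of -0.05 to 0.89. For glh-1 the correlations with the other 9 genes lay between -0.52 and 0.16, and for meg-1 between -0.02 and 0.48.

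With the sperm score as a covariate in limma, glh-4 and prg-1 were lower in BW1940. For glh-4 the log2 difference was -0.50 (standard error 0.13, adjusted p = 0.0442), and for prg-1 it was -0.40 (standard error 0.11, adjusted p = 0.0454). The next genes were pgl-1 at -0.44 (adjusted p = 0.0753) and csr-1 at -0.37 (adjusted p = 0.112). In this fit 3.9% of all probe sets were lower in BW1940, 3.88% higher, and 7.79% passed in either direction. The score was also taken over the msp genes alone, a setting chosen with the data already in view. The msp genes are part of the sperm score, so this fit is not a separate check. In it glh-4 and prg-1 passed (adjusted p = 0.0379 for each by limma), against 5.06% of all probe sets lower, 4.03% higher and 9.09% in either direction. With the 3 arrays of low sperm score left out in place of the covariate, 0 of the 10 genes passed (smallest adjusted p = 0.146, for glh-4), against 0.441% of all probe sets, and their median log2 difference was -0.36. Before adjustment, 4 had a p under 0.05 in that fit (glh-4, prg-1, pgl-1 and glh-2), all lower, against 8.71% of all probe sets lower and 9.71% higher.

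Most other genes of the germ granules also had negative log2 differences. Of 35 further granule component genes listed, 31 were on the array and 29 were tested. Of the 29, 2 were lower in BW1940, 0 were higher, and 23 had log2 differences below 0, with a median of -0.28. Of all probe sets tested, 0.33% were lower, 0.686% were higher and 39.3% had log2 differences below 0. The 2 granule genes that passed were gld-3, which encodes a KH domain partner of the poly(A) polymerase GLD-2, and mip-2, which encodes a LOTUS domain protein. Values of gld-3 were 38.2 ± 7.84 in BW1940 (SD, n = 5) and 74.3 ± 10.7 in LT186 (SD, n = 6), a log2 difference of -0.81 (standard error 0.13, adjusted p = 0.0176 by limma). Values of mip-2 were 42.3 ± 7.57 in BW1940 (SD, n = 5) and 83.1 ± 14.03 in LT186 (SD, n = 6), a log2 difference of -0.83 (standard error 0.14, adjusted p = 0.0213). In both genes every BW1940 array lay below every LT186 array, as in 1.47% of all probe sets, and the exact permutation p was 0.00216. Before adjustment, limma's p was under 0.05 for 6 of the 29, all lower, against 5.03% of all probe sets lower and 11.7% higher.

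The 18 other Argonaute genes went both ways. After adjustment 0 passed limma's test, 10 had log2 differences below 0, and the median was -0.14. At an unadjusted p under 0.05, 2 were lower and 1 higher, against 5.03% of all probe sets lower and 11.7% higher. A log2 difference below 0 was found in 39.3% of all probe sets. The germ line Argonaute gene alg-5 came nearest to passing the test, with values of 37.9 ± 6.66 in BW1940 (SD, n = 5) and 74.3 ± 21.2 in LT186 (SD, n = 6), a log2 difference of -0.79 (standard error 0.17, adjusted p = 0.0605). The next was wago-2, at -0.46 (adjusted p = 0.192).

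Of 53 genes listed under small RNA synthesis, 1 was lower and 0 higher. The list includes Dicer, the RNA-dependent RNA polymerases and the mutator proteins. It also holds sid, nrde and xrn genes, so it is wider than its name. Of all probe sets tested, 0.33% were lower and 0.686% higher. The 1 lower gene was tofu-4, which is needed for the production of piRNAs. Its values were 12.3 ± 6.01 in BW1940 (SD, n = 5) and 29.8 ± 4.58 in LT186 (SD, n = 6), close to the floor in BW1940, with a log2 difference of -0.87 (standard error 0.18, adjusted p = 0.0423 by limma). The median of the 53 genes was -0.17, and before adjustment limma's p was under 0.05 for 11 lower and 2 higher genes. The 2 higher were sid-2 and xrn-1, at 0.60 and 0.57 (adjusted p = 0.0590 and 0.0708 by limma). At that level 5.03% of all probe sets were lower and 11.7% higher.

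The marker lists gave the frame for these values. All 27 markers of germ line proliferation and meiosis had log2 differences below 0, with a median of -0.44. Of these, 0 passed limma's test after adjustment and 15 were lower at an unadjusted p under 0.05. For this and the other marker lists, the shares of all probe sets at that unadjusted level were 5.03% lower and 11.7% higher. Log2 differences below 0 made up 39.3% of all probe sets. The meiotic cohesin gene rec-8 was at 83.1 ± 4.88 in BW1940 (SD, n = 5) and 120 ± 16.3 in LT186 (SD, n = 6), a log2 difference of -0.47 (adjusted p = 0.0744). For zim-1, a zinc finger gene of chromosome pairing, it was -1.35 (adjusted p = 0.0738), with BW1940 arrays at or near the floor. The 22 oocyte markers had a median of -0.32, with 0 past the test and 1, spn-4, lower at an unadjusted p under 0.05 (log2 difference -0.58, adjusted p = 0.297). The other oocyte gene taken by the naming rule, chs-1, stood at -0.51 (adjusted p = 0.483). In the 18 somatic markers the median was 0.15, 0 passed, and 5 were higher at that level, with ges-1 and asp-1 of the intestine at 0.64 and 0.39 (adjusted p = 0.0524 and 0.153). The 65 sperm genes had a median of 0.26, with 0 past the test and 1 higher at an unadjusted p under 0.05. That gene was spe-36, at 0.44 (adjusted p = 0.246), and the next was spe-40, at 0.43 (adjusted p = 0.324), both dim in both strains. Of the 29 granule genes, 4 (oma-1, oma-2, puf-5 and pos-1) are also among the oocyte markers, 2 (ekl-1 and rsd-6) are on the list of small RNA synthesis and 1 (wago-4) is among the Argonautes.

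**Figure D4:**
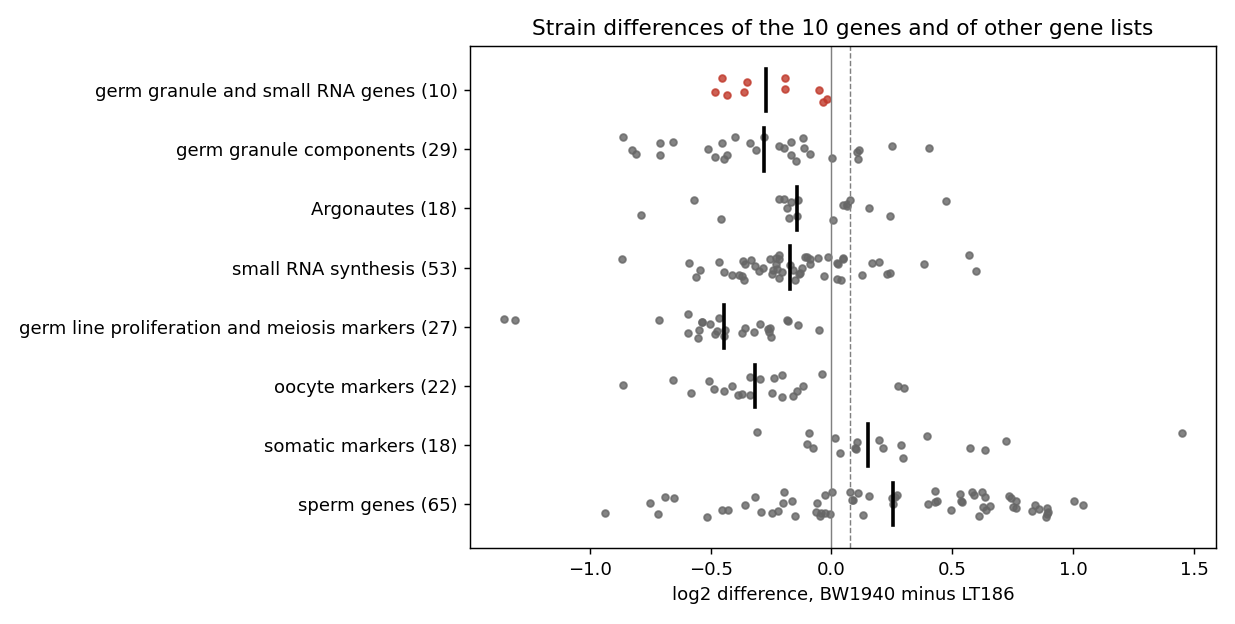
Log2 difference of each gene, BW1940 minus LT186, for the 10 genes (red) and for 7 other lists (grey), with a black bar for the median of each list and a dashed line for all probe sets tested. The medians of the 10 genes and of the 29 further granule genes were -0.27 and -0.28, those of the Argonautes and of the germ line markers -0.14 and -0.44.

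The genes whose log2 values ran closest to these over the 11 arrays were found by Pearson correlation. By this measure deps-1 was nearest to inx-22, an innexin gene, at 0.984. Next to it were C37C3.9 at 0.983 and puf-7, a Pumilio-related gene among the oocyte markers, at 0.981. For pgl-1 the nearest was ife-3, a cap-binding eIF4E gene, at 0.969. For prg-1 the nearest were hop-1, a presenilin gene, at 0.972, and cdk-7 at 0.968, and for glh-4 they were skpt-1 at 0.961, slfl-3 at 0.954 and zhp-2, a meiotic RING finger gene, at 0.952. The nearest to glh-2 were F54E12.2 at 0.983, tdc-1 at 0.967 and klp-19, a chromokinesin gene, at 0.967. For meg-1 the highest values were lower, with clec-171 at 0.890 and car-1, which encodes an RNA-binding protein of the granules, at 0.883. For glh-1 the nearest was gut-2 at 0.882, for glh-3 str-180 at 0.964, for pgl-3 lrr-1 at 0.967 and for csr-1 Y43F11A.6 at 0.941. These are the highest correlations over the whole array, over 11 points that share strain and germ line state, and they are given as a description alone.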

How the data were processed

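Whole L4 animals gave RNA for 5 BW1940 and 6 LT186 arrays (Affymetrix C. elegans). Values were deposited as intensity per probe set, linear and not log transformed. To make them the authors ran Microarray Suite 5 and then Probe Profiler, which gave weak probe pairs less weight and scaled every array to 100. The presence calls behind the authors' filter were not used here. The array annotation gives 1 symbol for 20766 of 22548 probe sets, of which 20701 matched the WBcel235 reference by gene identifier. It gives several for 887 and none for 895. Negative values were raised to 0, and log2 was taken after adding 10. A probe set was tested if 2 or more arrays reached 10, which left 18801, with all 13 of the 10 genes. The test was limma 3.58.1 in R 4.3.3 (lmFit, eBayes, no block), adjusted by Benjamini and Hochberg at 0.05 over all of these, and first tested on simulated data. Permutation tests ran in Python 3.11.15 with numpy 2.4.6. The methods name a modified t-test, which was stood in for by an equal-variance t-test on log2 values. For a gene with several probe sets, that of highest mean was counted. Genes named by rule are the 10, the genes of other lists that passed (4 at most, or else the 2 of smallest p) and, in part, the 3 nearest by correlation. The genes sma-6 and dbl-1 were named to check the labels. Outside the rule, ekl-1, znfx-1, vbh-1 and nos-2 were picked from their values on the arrays. Likewise sid-2 and xrn-1 were named for their unadjusted p, and genes on more than 1 list for the overlap. The 10 genes and the lists were chosen with earlier results of these data known. The labels call the samples biological replicates and say no more, so p-values measure the spread between these samples. Alternatives changed the offset, filter, normalization, array weights, replicate block, sperm score and the arrays included. Sequences were not used here.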

Additional observations from a re-analysis of the deposited data

Results flagged for a closer look

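In 4 of 26 groups of arrays examined (each strain on each of the 13 probe sets), the highest or lowest array lay further from the rest than Dixon's critical value, which chance gives in about 1 of 20 groups. The groups share arrays and genes and are not independent, so the count cannot be weighed against that rate. For meg-1 the flagged array was LT186 replicate 6 on all 3 probe sets, at 48.2 on 190120_at, 78.5 on 174964_at and 58.9 on 174965_s_at. The oocyte marker level of that array, 8.49, was the highest of the 11. For prg-1 the flagged array was BW1940 replicate 1, at 267, against 391 to 419 on the other BW1940 arrays. The sperm score and the germ line marker level of that array, 6.21 and 6.39, were the lowest in BW1940. The part of either in these values was not tested. The low value of pgl-3 in BW1940 replicate 5, at 36.7, did not reach the critical value.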

How the results depend on the processing

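Of the 10 genes, 0 passed limma's test under every setting except the sperm score and the msp score as covariates, where 2 did (glh-4 and prg-1). At an unadjusted p under 0.05 there were 4, 5 after quantile normalization or with either score, and 1 to 4 with any array left out. At this level 5.03% of all probe sets were lower and 11.7% higher in the main fit, and 6.58% and 6.06% after quantile normalization. Such shares were not counted for the t-test, for the fits with a score or for those with a single array left out. The counts of the 10 genes at this level in those fits therefore cannot be weighed against all probe sets. With the sperm and msp scores, 7.79% and 9.09% of all probe sets passed after adjustment. Of the 10 genes, only pgl-1 remained at the unadjusted level (a count of 1) without BW1940 replicate 1, LT186 replicate 1 or LT186 replicate 6. Without LT186 replicate 3 or 5, 2 remained. Over all probe sets 191 passed (129 higher, 62 lower). This became 305 with an offset of 32, 416 with no filter, 443 with array weights, 381 by the methods' t-test, 1464 with the sperm score, 1709 with the msp score, 83 without the 3 arrays of low sperm score, and 78 to 151 with any array left out. Calls were higher in 67.5% as deposited, 48.5% after quantile normalization (82 higher, 87 lower) and 57.4% after centring on the median (89 higher, 66 lower). All 10 genes stayed below 0 after either, with medians of -0.36 and -0.29.

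With a replicate block, which leaves LT186 replicate 6 without a partner, 5 probe sets passed and 0 of the 10 genes, also 0 at an unadjusted p under 0.05. Deviations of same-numbered arrays from their strain means correlated at -0.69, -0.64, -0.30, -0.59 and 0.10, so same-numbered arrays were not alike in their deviations. Sperm gene levels also varied within both strains, so these values cannot decide whether the numbers mark a shared batch. The labels do not say. Of 310 values of the 13 probe sets under other settings, 288 kept direction and side of the threshold, 4 came to pass it (glh-4 and prg-1 with the scores) and 18 changed direction. Under the replicate block these were glh-1 on 190711_at (0.019), glh-3 (0.0039), and meg-1 on 190120_at (0.078) and 174965_s_at (0.051). With an array left out they were glh-1 (-0.12 to 0.0092, and -0.074 to 0.070 on 190711_at), glh-3 (-0.045 to 0.031) and meg-1 (-0.090 to 0.078 on 190120_at, and -0.37 to 0.051 on 174965_s_at). The cause of these changes was not tested.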
